A study of Rattus norvegicus with 4 samples.

Results

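Heat shock chaperones and cold-inducible RNA binders were examined in rat colon as a set of 10 genes listed by symbol. These are Hspa1b, Hspa8, Hsph1, Hsp90aa1, Hsp90ab1, Dnajb1, Hspd1, Hspb1, Cirbp and Rbm3. The members were found by matching the RefSeq accession of each row to the gene table, and 7 of the 10 had a row with a value on all 4 arrays, out of 6963 named genes measured. No row was matched to Hspa1b, Dnajb1 or Rbm3, and these 3 genes were not analysed here. Each measured member had a single row, so the choice between rows of a gene played no part.

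Heat shock proteins are chaperones that bind unfolded proteins and help them to fold, or hold them until they can. Heat, inflammation and other stresses release heat shock factor 1, which binds heat shock elements in promoters and raises transcription of these genes. Cirbp and Rbm3 are small RNA-binding proteins with an RNA recognition motif, and their mRNAs are known to increase when cells are mildly cooled, the opposite of the heat shock response.

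The study gave mesenchymal stem cells (MSCs), labeled with green fluorescent protein, by tail vein to male Sprague Dawley rats with colitis induced by trinitrobenzene sulfonic acid (TNBS) in ethanol, a chemical model of inflammatory bowel disease (IBD). The arrays measured colon tissue RNA of 2 rats of this MSCT group and 2 control rats without transplantation. The sample descriptions call the control animals normal rats whereas the paper sets MSCT rats against IBD rats, so an effect of TNBS and one of the cells cannot be told apart here. Age is not given, the labels give no day and the paper gives different days for the array samples in its methods and its results. Whole tissue of the lesion region was taken, so a change in the number of cells of a type and a change of RNA per cell cannot be told apart either.

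The array medians lay between 848 and 893 intensity units, and 30.5% of the 26420 rows were blank on every array. All values below are log2 intensities as deposited, and differences are MSCT minus control on that scale with the standard error of limma, a linear model that shares the variance estimate between rows. With 2 arrays a group, an exact two-sided permutation test cannot go below 0.333, and the small number of arrays sets the precision of every value. Of the reference genes, Actb differed by 0.12, Gapdh by -0.19, B2m by -0.17 and Hprt1 by 0.44, each with an unadjusted limma p above 0.05. Without overlap of the groups, 2 of the 4 reference genes were higher and 1 was lower. By the methods' t-test, and by limma without the dimmest 25% or 50% of rows, 1 of these genes was higher at an unadjusted p under 0.05. The colon label was borne out by bright rows of epithelial genes such as Epcam (13.91 to 14.09 over the 4 arrays), Krt20 and Slc26a3, and by the smooth muscle genes Acta2, Actg2 and Tagln.

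Promoters of several members carried the letters of the heat shock element, a run of inverted units of GAA. The units were searched in pairs as GAANNTTC and TTCNNGAA, each of which reads the same on both strands, in the RefSeq window from 250 bases before to 50 bases after the transcript start (GRCr8). Runs of 3 units contain 2 overlapping pairs and were counted separately. The sequences of the measured members with a match are shown in the direction of the gene, because heat shock factor 1 acts on the chaperone genes through these units, with the matched units in capitals.

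Hsph1 near the start (chr12:10427317-10427359, plus strand): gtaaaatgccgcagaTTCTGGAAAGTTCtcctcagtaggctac
Hsph1 upstream (chr12:10427248-10427285, plus strand): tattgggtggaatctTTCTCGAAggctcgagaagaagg
Hspa8 near the start (chr8:50080444-50080486, plus strand): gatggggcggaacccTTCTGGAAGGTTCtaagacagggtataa
Hspa8 upstream (chr8:50080286-50080328, plus strand): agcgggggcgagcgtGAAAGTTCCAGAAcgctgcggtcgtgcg
Hspd1 (chr9:64084256-64084285, minus strand): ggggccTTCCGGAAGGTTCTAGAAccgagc
Hspb1 (chr12:26432388-26432445, minus strand): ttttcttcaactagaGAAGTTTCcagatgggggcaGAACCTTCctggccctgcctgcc

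Of the 6 measured members with a promoter in the table, 4 held a pair of units and 3 of these (Hsph1, Hspa8 and Hspd1) held a run of 3 units. Over all 33469 promoters of this length, 15.9% held a pair and 0.798% a run of 3. The run of Hspa8 occurred at 2 places. The run of Hspd1 has 3 overlapping pairs and is the same run, at chr9:64084262-64084279, that lies upstream of Hspe1 on the other strand. Hspd1 and Hspe1 encode the large and small subunits of the mitochondrial chaperonin and are read in opposite directions. This run lies inside the annotated span of Hspd1, which begins upstream of the transcript start used for the window. Dnajb1, which had no matched row, held 2 pairs, and the letters were not in the windows of Hsp90ab1, Cirbp and Rbm3. Outside the set, the windows of Hspa1a, Hspa5 and Hyou1 held no pair, while those of Dnaja1, Stip1, Cacybp and Hspe1 did. A match describes letters in the window and is not a measured binding site. Most members are known heat shock genes, so matches were likely from the choice of the set, and the counts describe these promoters only.

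**Figure D1:**
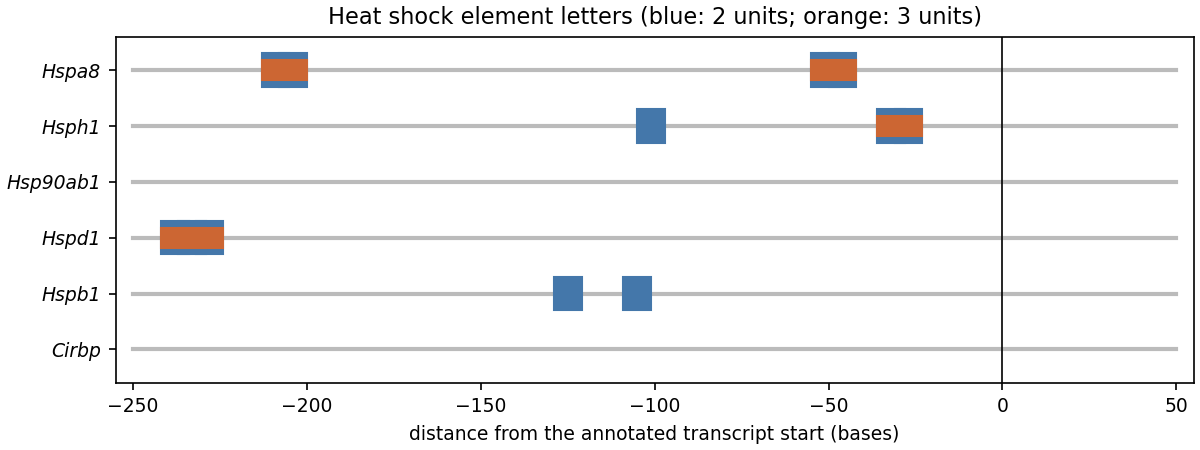
Positions of heat shock element letters in the promoter windows of 6 measured members, as the distance in bases from the annotated transcript start (vertical line). Blue boxes are pairs of units and orange boxes runs of 3 units. Hspa8, Hsph1 and Hspd1 hold runs of 3 units, Hspb1 holds pairs and the windows of Hsp90ab1 and Cirbp hold none.

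Among the 7 measured members, Hsph1 and Hspd1 were higher in the MSCT group at an unadjusted limma p under 0.05, and Cirbp was lower. In the rows of the whole table, 4.8% were higher and 7.17% lower at this limit. The groups had no overlap in 5 members that were higher, against 21.3% of all rows, and in 1 that was lower, against 24.5%. In the brightest 25% of rows, where all 7 members lie, the groups did not overlap in 28.4% of rows that were higher and 23.3% that were lower. The study's methods screened at p under 0.05 with a change over 2-fold, and no member passed this with the p of limma, which 2.12% of rows did as higher and 2.51% as lower. None passed it with the methods' t-test either, which 1.04% and 1.07% of rows did. No member and no row (0%) passed an adjusted p of 0.05 in this fit. The methods' t-test also gave 0 at that limit, and 2 members had an unadjusted p under 0.05 by it, Hsph1 and Hspd1. The median difference of the members was 0.37, and that of all rows was -0.02.

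**Figure D2:**
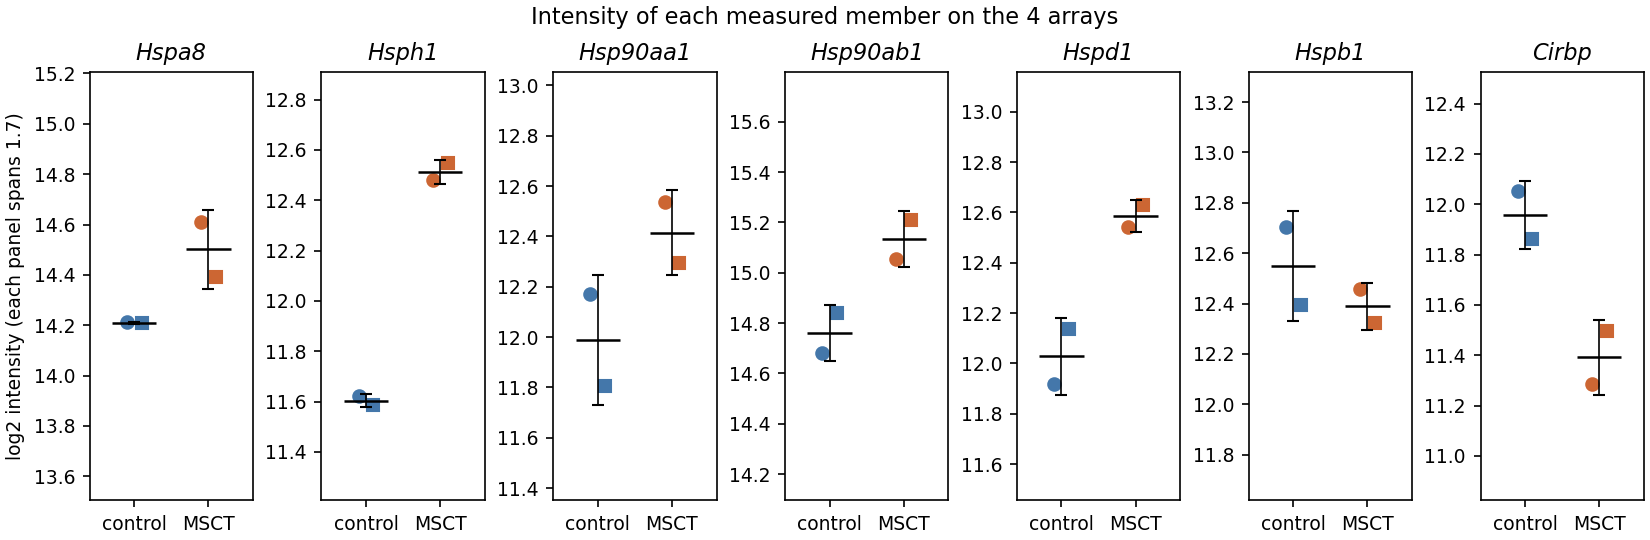
Log2 intensity of each measured member on the control arrays (blue) and MSCT arrays (orange), with circles for replicate 1, squares for replicate 2, and the mean with SD (n = 2 per group) as bars. Every panel spans the same height. Hsph1 shows the widest gap between groups, Hspb1 is the one member whose groups overlap, and Cirbp lies lower on both MSCT arrays.

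Hsph1 encodes Hsp110, which helps Hsp70 to exchange its nucleotide and to pull apart aggregated proteins. Its row (NM_001011901) measured 11.62 and 11.58 in the control rats against 12.48 and 12.55 in the MSCT rats. Both MSCT arrays were higher than both control arrays, and the gap of 0.86 between the nearest arrays of the groups was far wider than the gaps within groups (0.038 and 0.067). The difference was 0.91 (standard error 0.18), 1.88-fold higher, with a 95% interval from 0.42 to 1.40 (limma, unadjusted p = 0.00567, adjusted p = 0.289 over all rows). A difference of this size in either direction was seen in 8.42% of all rows and in 2.35% of the brightest 25%. With an intensity-dependent variance, Hsph1 was the single member that passed after adjustment (limma adjusted p = 0.0160), at a limit that 1.16% of rows passed as higher. Leaving out any 1 array kept the difference between 0.88 and 0.94 and the unadjusted p under 0.05.

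Hspa8 encodes Hsc70, the constitutive Hsp70 that folds new proteins in most cells. Its row (NM_024351) measured 14.21 in both control rats against 14.61 and 14.39 in the MSCT rats. The control arrays nearly coincided and both MSCT arrays were above them, by 0.18 at the least. The difference was 0.29 (standard error 0.19), 1.22-fold, and its 95% interval from -0.23 to 0.81 includes no difference (limma adjusted p = 0.593). Relative to its own control mean, Hsph1 exceeded Hspa8 by 0.47 and 0.76 on the MSCT arrays, while the control arrays lay within 0.0172 of 0. The inducible Hspa1b was not analysed here, but the gene table lists that name as a synonym of Hspa1a, a nearly identical neighbor. The row of Hspa1a measured 12.28 and 11.89 in the control rats against 13.49 and 12.85 in the MSCT rats, a difference of 1.09 (standard error 0.31; limma unadjusted p = 0.0206, adjusted p = 0.339). How far probes of the 2 genes share signal cannot be read from the table.

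Hsp90aa1 and Hsp90ab1 encode the stress-inducible and the constitutive form of cytosolic Hsp90, which matures kinases and steroid receptors. Hsp90aa1 (NM_175761) measured 12.17 and 11.81 in the control rats against 12.54 and 12.29 in the MSCT rats. Hsp90ab1 (NM_001004082) measured 14.68 and 14.84 in the control rats against 15.05 and 15.21 in the MSCT rats. In both genes the groups did not overlap, but for Hsp90aa1 the nearest arrays were only 0.12 apart and the control arrays 0.36. The differences were 0.43 (standard error 0.23; 95% interval -0.19 to 1.05) and 0.37 (standard error 0.20; 95% interval -0.15 to 0.89). Neither passed an unadjusted p of 0.05 by limma (adjusted p = 0.530 and 0.519). Without control replicate 2, the difference of Hsp90aa1 was 0.24, and without control replicate 1 it was 0.61.

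Hspd1 encodes Hsp60, the chaperonin that folds proteins brought into the mitochondrial matrix. Its row (NM_022229) measured 11.92 and 12.14 in the control rats against 12.54 and 12.63 in the MSCT rats. The groups were 0.41 apart at the nearest arrays. The difference was 0.56 (standard error 0.20), 1.47-fold, with a 95% interval from 0.03 to 1.08 (limma, unadjusted p = 0.0414, adjusted p = 0.399). With any 1 array left out the unadjusted p rose above 0.05 (0.0503 to 0.181), with differences from 0.45 to 0.67. Hspe1, which encodes its partner Hsp10 and shares the run of units shown above, differed by 0.42 (12.33 and 12.42 against 12.68 and 12.91; limma adjusted p = 0.494).

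Hspb1 encodes Hsp27 (Hsp25 in rodents), a small heat shock protein that holds unfolded proteins without ATP and is abundant in muscle and epithelium. Its row (NM_031970) measured 12.70 and 12.39 in the control rats against 12.46 and 12.32 in the MSCT rats. The groups overlapped, and the control arrays were farther apart (0.31) than the group means. The difference was -0.16 (standard error 0.21; 95% interval -0.73 to 0.41; limma adjusted p = 0.785), and without control replicate 1 it shrank to -0.0043.

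Cirbp encodes the cold-inducible RNA-binding protein, which binds and stabilizes mRNAs and is known in inflamed tissue also as a secreted signal. Its row (NM_031147) measured 12.05 and 11.86 in the control rats against 11.28 and 11.50 in the MSCT rats. Both MSCT arrays were lower, by 0.36 at the nearest arrays, while the arrays within a group were 0.19 and 0.21 apart. The difference was -0.57 (standard error 0.20), 1.48-fold lower, with a 95% interval from -1.11 to -0.02 (limma, unadjusted p = 0.0448, adjusted p = 0.409). The unadjusted p was above 0.05 with any 1 array left out (0.0627 to 0.220), by the methods' t-test (0.0589) and with equal array medians (0.0533), with differences from -0.67 to -0.46. Cirbp was the one cold-inducible member with a row. Its difference had the opposite sign to those of the 5 higher members, and the same sign as that of the heat shock member Hspb1 (-0.16). Relative to the control mean, the mean of the 6 measured heat shock members was 0.42 and 0.38 on the MSCT arrays, where Cirbp was -0.67 and -0.46. These values are descriptions, because the members were chosen together.

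**Figure D3:**
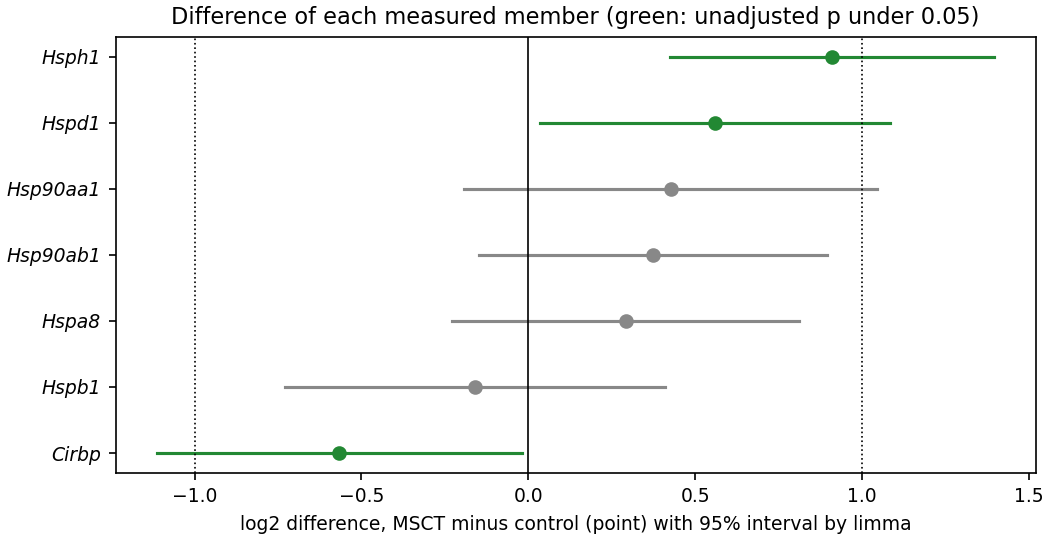
Log2 difference of each measured member, MSCT minus control, with the 95% interval of limma. Green marks an unadjusted p under 0.05 and the dotted lines the limit of 2-fold. The interval of Hsph1 lies from 0.42 to 1.40, those of Hspd1 and Cirbp end close to 0, and the other 4 include 0.

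Wider lists of chaperones and their partners were read from the same fit, described by counts beside the shares of all rows given above. Of all rows 48% had a difference above 0, and of the brightest 25% of rows 53.7% did. In the Hsp70 family all 10 measured genes of 15 were higher in the MSCT group, 9 without overlap, and 4 of them at an unadjusted p under 0.05 (median difference 0.78). Of these 4, Hyou1 and Hspa5, the Hsp110 and Hsp70 of the endoplasmic reticulum, differed by 1.64 and 0.82 (limma adjusted p = 0.282 and 0.324), and the others were Hsph1 and Hspa1a. Hspa4, another Hsp110 gene, differed by 0.05 and Hspa2 by 0.32. Without MSCT replicate 1 the count of 4 was 2. Hyou1 and Hspa1a also passed the limit of 2-fold with the p of limma, but the p of Hspa1a was 0.101 by the methods' t-test.

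J-domain proteins bring substrates to Hsp70, and 25 of 45 were measured. They went both ways, 12 higher and 13 lower, with a median of -0.02. Of these, 1 passed an unadjusted p of 0.05 (4 without control replicate 2 and 2 without MSCT replicate 1). The 1 gene was Dnaja1, a cytosolic J-domain partner of Hsc70, at 11.68 and 11.81 in the control rats against 12.83 and 12.72 in the MSCT rats (difference 1.03, standard error 0.19; limma unadjusted p = 0.00403, adjusted p = 0.270). Dnaja1 also passed the screen by either test and passed an adjusted p of 0.05 with an intensity-dependent variance. Of 8 measured nucleotide exchange and partner factors none passed an unadjusted p of 0.05 (1 without control replicate 2), and Bag3, a stress-induced partner in selective autophagy, differed by 0.43.

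In the Hsp90 list, 12 of 16 measured genes were higher and 3 had an unadjusted p under 0.05. Stip1, the adaptor that links Hsp70 to Hsp90, measured 11.58 and 11.70 in the control rats against 12.26 and 12.13 in the MSCT rats (difference 0.55, standard error 0.19; limma adjusted p = 0.391). Cacybp, which binds a ubiquitin ligase and also Hsp90, differed by 0.96 (standard error 0.20; adjusted p = 0.289). The third was Fkbp5, an Hsp90 co-chaperone of the glucocorticoid receptor (difference 2.63; adjusted p = 0.257). Its row was dim, at 6.31 and 6.95 in the control rats against 9.47 and 9.06 in the MSCT rats. Every value lay below the array medians (9.73 to 9.80 on the log2 scale), so the size of this difference rests on low control signal. Fkbp5 is known as a glucocorticoid-induced gene, and the cause of its difference was not tested.

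Of 6 measured small heat shock proteins 5 were lower and none passed an unadjusted p of 0.05, with Hspb6 at -0.25, Hspb8 at -0.15 and the muscle chaperone Cryab at 0.33. In the cytosolic chaperonin and prefoldin list, which fold actin and tubulin, 8 of 10 genes were higher with a median of 0.21. Tcp1, a chaperonin subunit, differed by 0.49 (limma unadjusted p = 0.0499, adjusted p = 0.418), and this call was lost with quantile normalization, with array weights, with the replicate number as a block and with any 1 array left out, while the methods' t-test made 4 calls in the list. The subunits Cct2, Cct3, Cct4 and Cct5 differed by 0.27 to 0.33, Cct6a by 0.15 and Cct6b by -0.36, and none of these passed by limma. Among 9 mitochondrial chaperones and proteases 1 passed an unadjusted p of 0.05, Hspd1. The one measured gene of the heat shock factor list was Hsbp1, which binds heat shock factor 1, and it differed by 0.05 (limma adjusted p = 0.941).

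A list of 27 genes known to be induced by heat through heat shock factor 1 had 20 measured members, which include the 6 heat shock members above. Of the 20, 16 were higher, 15 of these without overlap, and 6 had an unadjusted p under 0.05, while none was lower at that limit. The 6 were Dnaja1, Hsph1, Cacybp, Hspa1a, Stip1 and Hspd1. The 4 genes with a difference below 0 were Serpinh1 (-0.25), Hspb1 (-0.16), Hspb8 (-0.15) and Ubb (-0.005). Without the members of the set, 14 genes were left with a median difference of 0.37, of which 4 had an unadjusted p under 0.05. Without MSCT replicate 1, the count of 6 was 3. Of the 21 genes of the list with a promoter in the table, 15 held a pair of heat shock units and 7 a run of 3 units. The list holds genes known for heat induction, so this count is a description of the list.

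**Figure D4:**
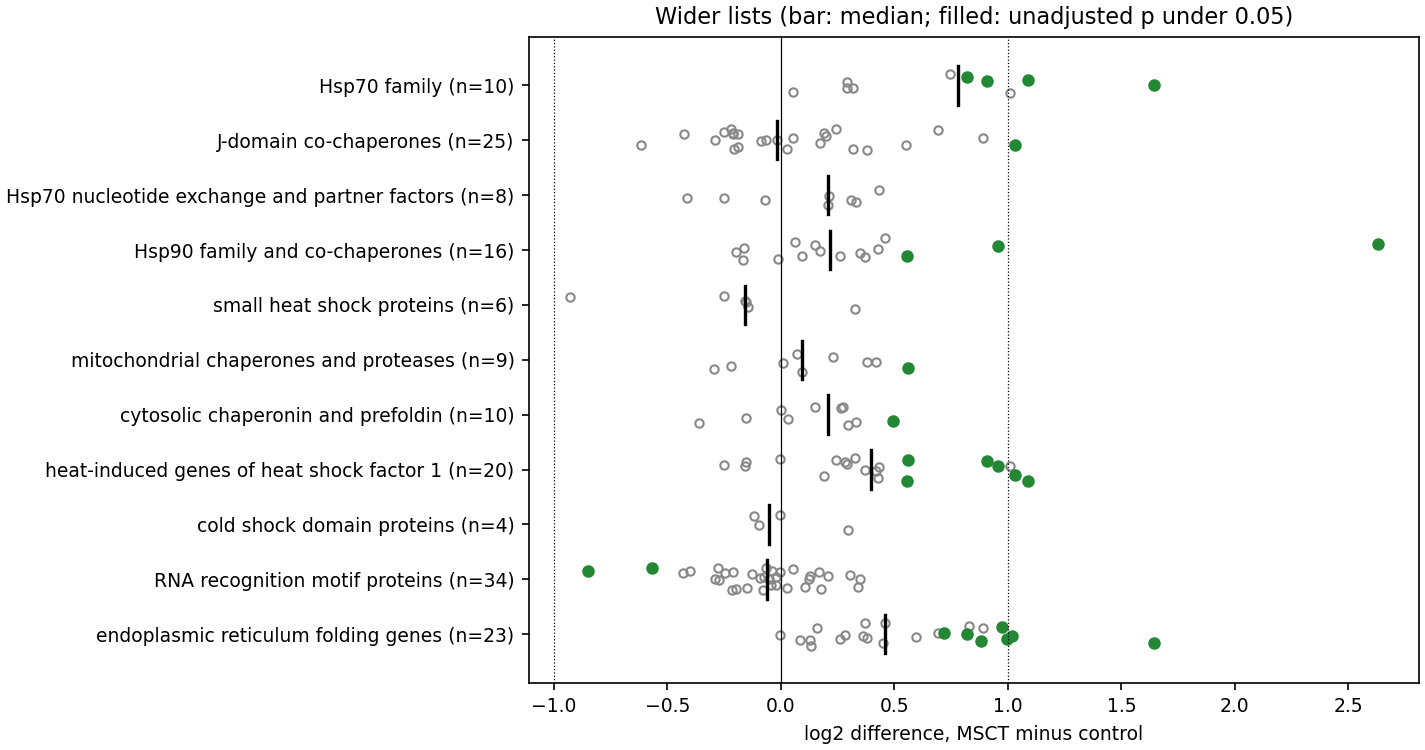
Log2 difference, MSCT minus control, of every measured gene in 11 lists (n beside each name), with a bar at the list's median and filled points for an unadjusted limma p under 0.05. Points of the Hsp70 family all lie above 0 and those of the RNA recognition motif list center near 0, with Cirbp and Ptbp2 as its 2 filled points. Dotted lines mark the limit of 2-fold.

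Relatives of Cirbp were read in the same way. Among 34 measured genes with an RNA recognition motif, 23 were lower and 11 higher, with a median of -0.06, and none was higher at an unadjusted p under 0.05. Ptbp2, a neuronal splicing regulator, was the other gene lower at that limit, at 9.36 and 9.26 in the control rats against 8.20 and 8.72 in the MSCT rats (difference -0.85, standard error 0.25; limma adjusted p = 0.348). These calls were not stable, since 3 genes were higher and 0 lower by the methods' t-test (Hnrnpab, Rbm42 and Rbm45, which differed by 0.12, 0.35 and 0.18), and the 2 lower became 0 without control replicate 1 or MSCT replicate 1 and 1 without MSCT replicate 2. Proteins with a cold shock domain, a different RNA-binding fold, showed no gene at that limit among 4 measured, and Ybx1 differed by -0.12.

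Chaperones of the endoplasmic reticulum, which serve secretory cells, were compared as the list most like these. Of 23 measured genes, 22 were higher, 18 without overlap, and 7 had an unadjusted p under 0.05, with a median of 0.46 beside 0.40 in the heat-induced list. The 7 became 4 without MSCT replicate 1 and 11 without control replicate 2. Creld2, a secreted folding factor, differed by 0.98 (limma adjusted p = 0.285) and Hyou1 by the value given above. The difference between these lists was not tested.

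Cell type markers were read over the same groups. Of 15 measured colon epithelium markers 12 were higher in the MSCT group, 10 without overlap, with a mean log2 level of 13.37 and 13.44 in the control rats against 13.91 and 13.84, and the goblet cell genes Zg16 and Tff3 had an unadjusted p under 0.05 (differences 2.65 and 1.49; limma adjusted p = 0.257 and 0.260). Of 7 fibroblast markers 6 were higher, 4 without overlap, with a mean level of 13.06 and 12.60 against 13.07 and 13.22. Of these, Col1a2 and Vim passed an unadjusted p of 0.05, a count that was 0 without control replicate 2, MSCT replicate 1 or MSCT replicate 2, and 3 without control replicate 1. Of 8 measured myeloid and mast cell markers, 6 were higher in the MSCT group and 4 at an unadjusted p under 0.05 (2 without the dimmest 50% of rows). The mean log2 level of the list was 9.13 and 8.99 in the control rats against 10.04 and 10.11 in the MSCT rats. Its differences ranged from -0.09 to 4.41 with a median of 0.71, so the mean leans on the largest of them. All 6 measured lymphoid and plasma cell markers were higher, with a mean level of 7.29 and 7.10 against 8.04 and 8.15. At an unadjusted p under 0.05, 3 of them were higher, 1 by the methods' t-test and 0 without the dimmest 25% of rows. The list's mean lay below the array medians (9.73 to 9.80 on the log2 scale) on every array. Of 10 neuron and glia markers 8 were lower and 2 higher, with differences from -1.06 to 1.06. The list's mean was 9.74 on both control arrays against 9.35 and 9.41, and 3 genes were lower at an unadjusted p under 0.05, Uchl1, Elavl4 and Nefm. The 3 became 0 without control replicate 1 or MSCT replicate 1, and 1 without MSCT replicate 2 or by the methods' t-test. The 6 smooth muscle markers did not separate the groups (14.78 and 14.44 against 14.66 and 14.62). The part of these cells in the values of Hsph1, Hspd1 and Cirbp was not tested.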

How the data were processed

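Colon RNA of 4 male rats was hybridized to one-color NimbleGen arrays, with 1 array per rat and 2 arrays per group. The authors scanned the arrays and extracted them with NimbleScan, and deposited 1 linear intensity per transcript and array. The submitters' processing notes name RMA, a method of background correction, normalization and probe summary, and no settings were found in the sources used here. All values were taken as log2 of the deposited intensity, with no pseudocount, further scaling or filter. MSCT and control arrays were compared with limma 3.58.1 (R 4.3.3; default lmFit and eBayes) over all 18350 rows with a value, with Benjamini-Hochberg adjustment over those rows. The screen of the study's methods is an unadjusted p under 0.05 with a fold change over 2. The fit was tested on 5 simulated sets of 18350 rows, in which 94.5% to 97% of 200 rows changed by 2 on the log2 scale passed this screen, beside 264 to 298 unchanged rows. That change is larger than the difference of any member (0.91 at most), and recovery of changes of the members' size was not tested.

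Row accessions were matched to symbols with the RefSeq gene table of GRCr8, ignoring versions, and 1 row per gene (highest mean) was kept. No value column lacked a sample. Members and gene lists were chosen with earlier results of these data known. Named are all members, the measured gene of the heat shock factor list, the reference genes, and from each wider list up to 3 genes a direction with the lowest p under 0.05 (up to 2 from the endoplasmic reticulum and immediate early lists). Hspa1a, Hspe1, other genes with values above that p and the epithelial, fibroblast and neuron markers were named after their values were seen.

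Alternatives were the methods' t-test (analysis of variance on 2 groups), quantile normalization, equal array medians, leaving out dim rows, an intensity-dependent variance (trend and robust options), array weights, a block for the replicate number, omission of each array, another fold limit, linear means and the mean over rows of a gene. For its array screen the paper gives the limits but names no test, and the t-test here stands in for its analysis of variance. Motifs and figures used pandas 2.3.3 and matplotlib 3.10.9 in Python 3.11.15.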

Additional observations from a re-analysis of the deposited data

How the results depend on the processing

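All 7 measured members kept the direction of their difference under each of the 14 alternatives run on them. Under many of these the direction could not change. The methods' t-test, leaving out dim rows, the intensity-dependent variance and the replicate block alter the p and not the difference. Array weights also left the differences as they were, and the mean over rows had no effect on genes with a single row. The difference of Hspb1 ranged from -0.3152 to -0.0043. Over all rows, the main fit passed 850 through the screen, the methods' t-test 388, the fit without the dimmest 50% of rows 251, and a fold limit of 1.5 let 2019 pass. With 1 array left out the count lay between 934 (without control replicate 1) and 1565 (without control replicate 2). The 0 members past the screen became 1 (Hsph1) with a fold limit of 1.5 and stayed at 0 under the other alternatives. Of the members, 3 had an unadjusted p under 0.05, and 6 did with an intensity-dependent variance (all but Hspb1). With any 1 of the 4 arrays left out the count was 1, which was Hsph1 each time. Hsph1 passed an adjusted p of 0.05 without the dimmest 50% of rows (0.0366) and with an intensity-dependent variance (0.0160), and over its alternatives the adjusted p lay between 0.016 and 0.662. No other member passed an adjusted p of 0.05 in any alternative. The causes of these changes were not tested.

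The replicate numbers of the labels mark no shared litter or day. The deviations of the arrays numbered 1 correlated at 0.234, which with 2 arrays a group equals that of the arrays numbered 2. With the replicate number as a block, 971 rows passed the screen, and Cirbp had an unadjusted limma p of 0.0639 while Hsph1 and Hspd1 had 0.0108 and 0.0477. Leaving out an array leaves 1 array in a group, which is then assumed to vary like the other group. The precision is limited by 2 arrays a group, and signal over background is not given in the sources used here.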

Other observations

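Immediate early genes, which respond within minutes to stress and growth signals, did not share one direction. Of 25 measured genes, 14 were higher and 11 lower in the MSCT group, with a median difference of 0.03. Jun, a subunit of the AP-1 transcription factor, measured 12.11 and 12.02 in the control rats against 11.24 and 11.23 in the MSCT rats (difference -0.83, standard error 0.18; limma adjusted p = 0.298). Fosl2, another AP-1 subunit, differed by -0.90 (standard error 0.18; adjusted p = 0.289) in its brighter row, and its arrays did not overlap. Its relative Fosl1 differed by 1.80 (standard error 0.33; limma adjusted p = 0.269) and the proliferation gene Myc by 1.00 (standard error 0.25; adjusted p = 0.324). In all, 3 genes of the list were higher and 5 lower at an unadjusted p under 0.05, beside 4.8% and 7.17% of all rows. These counts moved with the processing, to 1 higher and 6 lower by the methods' t-test and to 3 and 3 with equal array medians.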
